A study of Mus musculus with 2 samples.

Results

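Matrix glycoproteins, laminins and elastic fibre proteins make up much of what a fibroblast secretes around itself, and their mRNAs were compared between mouse embryonic fibroblasts (MEFs) with and without knockdown of the long noncoding RNA AK156230. The members were 48 listed genes, and a gene was taken as measured where a probe set of the array was annotated to it alone. This held for 45 of the 48 genes, of 18193 named genes on the array. Fbn1, Efemp2 and Spp1 were not analysed here. Where a gene had more than 1 probe set, the brightest of them, by mean log2 signal over both arrays, stands for the gene.

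Primary MEFs came from C57BL/6 embryos at day 13.5 of gestation, taken whole, and were young cells at passage 2. They were transfected either with GapmeR AK156230, a locked nucleic acid oligonucleotide that directs RNase H to the lncRNA, or with GapmeR Control, a scrambled oligonucleotide without a target. Total RNA of each condition was hybridized to 1 Affymetrix array, so no value below has a replicate check, no test was possible and no p-value is given. A single GapmeR was used against AK156230, and losing the lncRNA and receiving this oligonucleotide cannot be told apart. No probe set was named for AK156230 in the annotation used, so its own level was not read. Below, control and knockdown stand for GapmeR Control and GapmeR AK156230, each pair of values gives the control signal first, and log2 ratios are knockdown over control. The question addressed by the arrays was which mRNAs differ once AK156230 is silenced.

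Fibronectin is laid down early as fibrils that cells pull on through integrins. Elastic fibres are built on a scaffold of fibrillin microfibrils, onto which fibulins and lysyl oxidases help to deposit and cross-link elastin, and latent TGF-beta binding proteins hold the growth factor in the same scaffold. Laminins are trimers of an alpha, a beta and a gamma chain that polymerize on the cell surface, where nidogens and perlecan tie them to collagen IV. Tenascins, thrombospondins, SPARC and periostin belong to the matricellular proteins, which tune adhesion rather than bear load.

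Values are MAS5 signals, a linear measure of probe set brightness. The median signal of all probe sets was 54.8 on the control array and 50.95 on the knockdown array, and genes are called bright here if their signal on the brighter array reached that array's median. A bright signal depends on the probes as well as on the RNA, so signals are compared between arrays and not between genes. Between the 2 brightest probe sets of a gene, log2 ratios varied with an SD of 0.276 per probe set over 5113 genes with 2 bright probe sets, a technical spread that does not stand in for replicate cultures. Differences are called lower or higher at 2-fold, the fold threshold of the study.

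Of the 45 measured members, 13 were lower and 2 were higher by at least 2-fold in knockdown cells, and 30 lay within 2-fold. Over all named genes, 3.85% were lower and 1.59% were higher by that much. The members lower by 2-fold or more were Fbn2, Mfap4, Mfap5, Emilin1, Lama2, Lamc1, Nid2, Hspg2, Thbs2, Tgfbi, Sparcl1, Abi3bp and Matn2. The members higher by 2-fold or more were Has2 and Lama3. The median log2 ratio was -0.62 over the members and -0.074 over all named genes, and 39 members (86.7%) had log2 ratios below 0, against 58.8% of all named genes. Among bright genes, 12 of 38 members were lower and 1 was higher, against 4.92% and 1.9% of all bright genes. When both arrays were scaled to the same median, which moved the median of all genes up by 0.105, 36 members had log2 ratios below 0, against 46.3% of all named genes, and the median of the members was -0.51. The list was drawn up with results of these arrays already known, so these counts describe the genes and do not test the list.

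**Figure D1:**
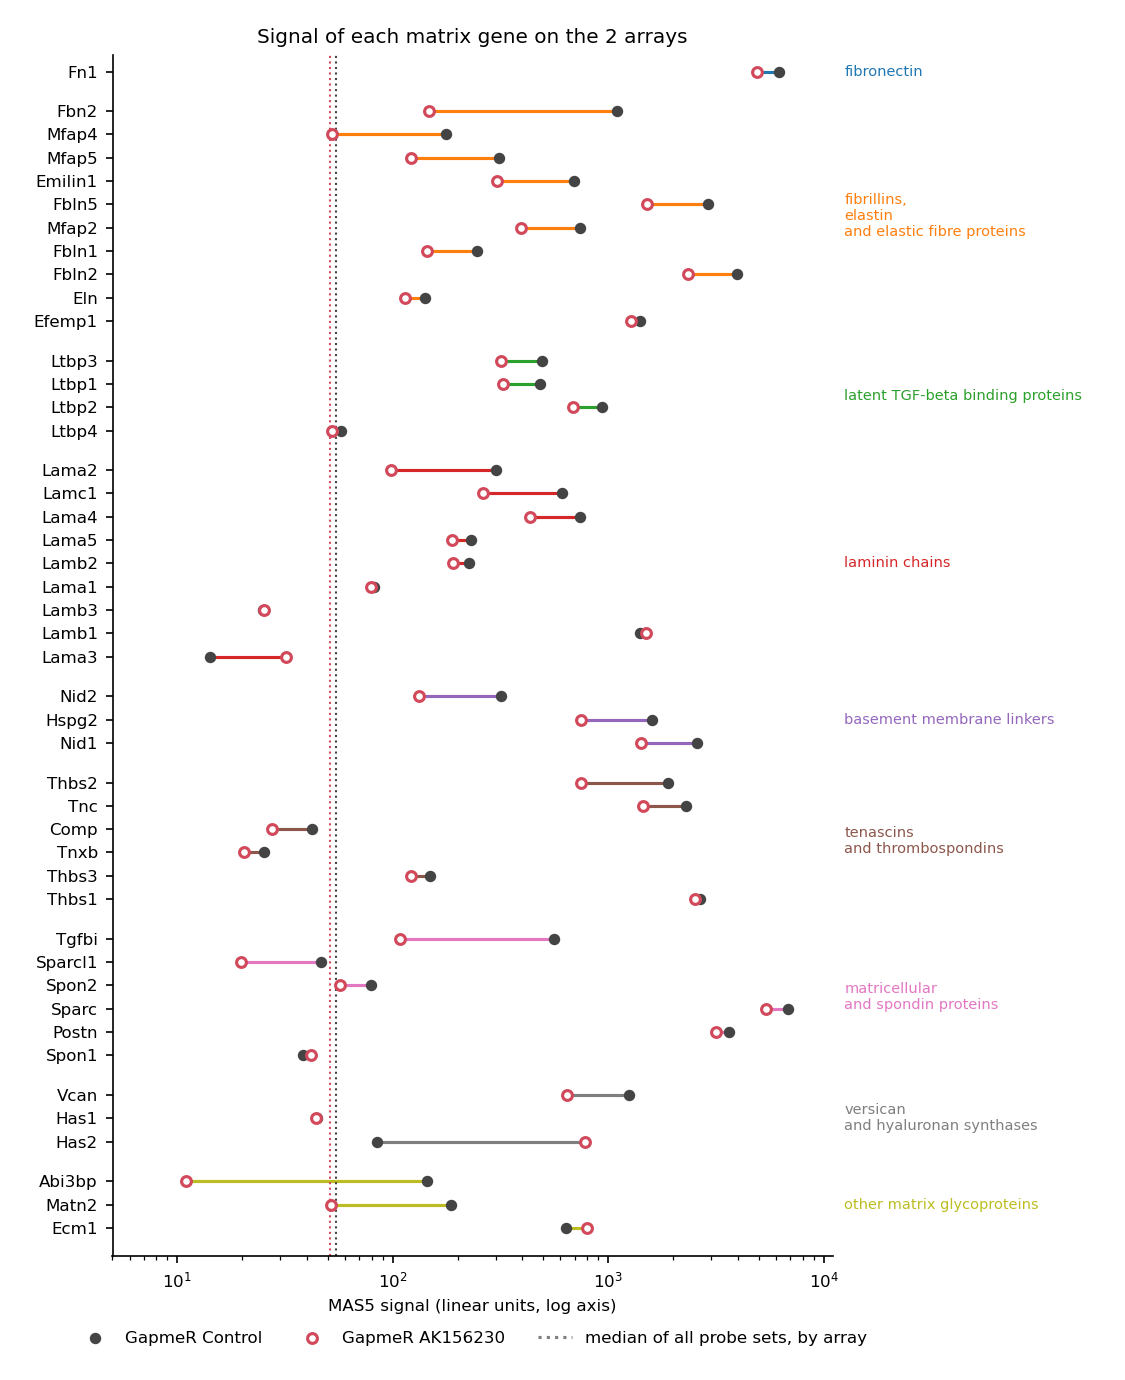
MAS5 signal (log axis) of each of the 45 measured matrix genes on the GapmeR Control array (filled points) and the GapmeR AK156230 array (open points), grouped by role, with dotted lines at the median signal of each array. The open point lies to the left of the filled one for 39 genes, and Has2 is the bright gene with the widest gap to the right, from 84.54 to 778.43.

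All 10 measured fibrillin, elastin and elastic fibre genes had log2 ratios below 0, and 4 of them were lower by 2-fold or more, with a median log2 ratio of -0.92. Fbn2, which encodes fibrillin-2, the fibrillin of developing tissues, read 1093.72 in control and 147.87 in knockdown cells, 7.40-fold lower. Its second probe set read 950.63 and 132.78, so both probe sets gave nearly the same ratio. Mfap4, a microfibril-associated protein that binds elastin, had signals of 175.94 and 52.05 at its only probe set, 3.38-fold lower. Mfap5, a small glycoprotein that decorates fibrillin microfibrils, went from 311.9 to 121.38, 2.57-fold lower, and its second probe set from 95.26 to 46.31. These 3 genes were the ones of this role with the largest differences by their representative probe sets. Emilin1, a glycoprotein at the interface of elastin and microfibrils, had signals of 693.1 and 305, 2.27-fold lower, while its second probe set had a log2 ratio of -0.77 and did not pass 2-fold.

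The other elastic fibre genes were lower by less than 2-fold, with 2 of them close to it. Fbln5, which encodes fibulin-5, an organizer of elastin deposition, had signals of 2908.37 and 1516.87, 1.92-fold lower. Mfap2, the microfibril glycoprotein MAGP-1, had signals of 736.39 and 392.25, 1.88-fold lower. Fbln1 and Fbln2, which encode fibulins of microfibrils and basement membranes, were 1.72-fold and 1.69-fold lower. Efemp1, which encodes fibulin-3, was nearly level, with signals of 1412.56 and 1282.09.

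The signal of Eln, which encodes tropoelastin, depended on the probe set. The probe set that represents the gene read 141.1 and 113.48, 1.24-fold lower. The other read 395.41 and 38.25, 10.3-fold lower, and its mean log2 signal was 6.94 against 6.98 for the first. The rule for the representative probe set therefore rested on a small margin, and Eln had a log2 ratio of -3.37 when the probe set with the higher GapmeR Control signal was taken. Which probe set reports the elastin mRNA better was not tested.

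Fn1, which encodes fibronectin, was bright on both arrays and differed little, with signals of 6210.36 and 4919.82, 1.26-fold lower. Its second probe set had a log2 ratio of -0.05. Of the 4 latent TGF-beta binding proteins none reached 2-fold. Ltbp3 had signals of 492.99 and 318.79, 1.55-fold lower, and Ltbp1 480.5 and 323.53, 1.49-fold lower. Ltbp2 was 1.36-fold lower (936.3 and 690.08), and Ltbp4, close to the array median, 1.09-fold lower (57.24 and 52.45). The log2 ratios of all 4 were thus below 0, from -0.63 to -0.13.

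Laminin chains differed in their ratios. Of 9 chains, 2 were lower and 1, Lama3, was higher by 2-fold or more, and the median log2 ratio was -0.24. Of the 7 bright chains, 2 were lower and 0 higher. Lama2, the alpha chain of the laminin of muscle and nerve basement membranes, had signals of 301.56 and 98.03, 3.08-fold lower. Lamc1, the gamma chain shared by most laminins, went from 611.77 to 263.53, 2.32-fold lower, but its second probe set (96.97 and 73.55) gave a log2 ratio of -0.40. Lamb1, a beta chain that pairs with both, was level at 1410.04 and 1498.37, and its other bright probe sets had log2 ratios of 0.20 and 0.33. The mRNAs of chains that can form 1 trimer were therefore not lower to the same extent. Lama4, an alpha chain of vessels and mesenchyme, was 1.69-fold lower (736.68 and 435.18). Lama5, Lamb2 and Lama1 had log2 ratios of -0.30, -0.24 and -0.04, and that of Lama1 was above 0 when both arrays were scaled to the same median.

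Lama3 and Lamb3 encode chains of the epithelial laminin that anchors hemidesmosomes, and both were below the median signal on either array. Lama3 had signals of 14.21 and 31.87, 2.24-fold higher, and its second probe set 12.74 and 15.83. Lamb3 had signals of 24.98 and 25.14. With the 25th percentile of all signals (24.3) added to every value, the log2 ratio of Lama3 was 0.54. Its call thus rested on signals near the bottom of the scale.

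The proteins that link laminins to the collagen network had the same direction. Nid2, which encodes nidogen-2, had signals of 318.52 and 132.31, 2.41-fold lower. Nid1, which encodes nidogen-1, went from 2578.88 to 1421.53, 1.81-fold lower, and further probe sets, the second of them dim, gave -0.80 and -0.84 (log2). Hspg2, which encodes the heparan sulfate proteoglycan perlecan, had signals of 1594.68 and 751.24, 2.12-fold lower. That call was narrow, since a second probe set (338.47 and 230.93) had a log2 ratio of -0.55, and the log2 ratio was -0.98 with both arrays scaled to the same median.

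Thrombospondins differed among themselves. Thbs2, an inhibitor of angiogenesis that also acts in collagen fibril assembly, had signals of 1885.51 and 750.25, 2.51-fold lower. Both further probe sets were also lower, 2.98-fold (1876.3 and 630.68) and 3.33-fold (316.61 and 95.17), so all 3 passed 2-fold. Thbs1, an activator of latent TGF-beta, was level at 2669.35 and 2533.14, as was its second probe set at 795.26 and 797.97. Thbs3 was 1.22-fold lower, and Comp, dim on both arrays, 1.53-fold lower. Tnc, which encodes tenascin-C, was 1.58-fold lower (2301.13 and 1452.26), with a log2 ratio of -0.09 at its second probe set. Tnxb was dim, with signals of 25.19 and 20.33.

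Among matricellular and spondin genes, Tgfbi stood apart from bright genes that were nearly level. Tgfbi encodes a TGF-beta-induced adhesion protein that binds integrins and collagens. Its signals were 562.67 and 107.99, 5.21-fold lower. Of its 4 probe sets, 3 had log2 ratios from -2.50 to -2.38, and the remaining one read 252.2 and 153.44, a log2 ratio of -0.72. Those 3 have identifiers ending in _x_at or _s_at, which mark probes that can match more than 1 transcript, and without such probe sets Tgfbi was within 2-fold. Sparc, which encodes the collagen-binding protein osteonectin, had signals of 6870.14 and 5388.79, 1.27-fold lower. Postn, which encodes periostin, had signals of 3624.74 and 3158.67, 1.15-fold lower. Sparcl1, a relative of Sparc, was 2.34-fold lower but dim (46.23 and 19.79), and its log2 ratio was -0.68 with the offset of 24.3. Spon2 was 1.40-fold lower, and Spon1 was dim at 38.2 and 41.63 while a further dim probe set read 23.16 and 11.62, just under 2-fold.

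Hyaluronan synthase 2 was the member with the largest increase. Has2 encodes the main enzyme that extrudes hyaluronan, the glycosaminoglycan to which versican binds. It read 84.54 in control and 778.43 in knockdown cells, 9.21-fold higher. The second probe set read 69.78 and 801.82, 11.5-fold higher. Only 10 of the 18193 named genes had a higher log2 ratio. Vcan, which encodes versican, went the other way, with signals of 1252.67 and 643.8, 1.95-fold lower, and its other 2 bright probe sets had log2 ratios of -0.75 and -0.80. The remaining 5 probe sets of Vcan were dim, with log2 ratios from -0.27 to 0.47. Has1 was dim and level, with signals of 44.68 and 44.05.

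Abi3bp and Matn2 were among the members with the largest decreases. Abi3bp encodes a matrix protein that binds integrins and has been linked to fibroblast senescence. It read 143.83 in control and 10.99 in knockdown cells, 13.1-fold lower, and 6 named genes had a lower log2 ratio. The second value lies under the 25th percentile of its array (23.56), so the size of the ratio is uncertain. With the offset of 24.3 the log2 ratio of Abi3bp was -2.25. Its second probe set, dim on both arrays (23.69 and 3.63), had a log2 ratio of -2.71. The probe set that represents Abi3bp is an _s_at one, and without _x_at and _s_at probe sets the gene was at -2.71. Matn2, which encodes an adaptor protein of matrix filaments, had signals of 186.55 and 51.58, 3.62-fold lower, with 133.92 and 34.14 at its second probe set. Both probe sets of Matn2 passed 2-fold. Ecm1, a secreted glycoprotein of skin and vessels, was 1.26-fold higher (634.72 and 800.92).

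**Figure D2:**
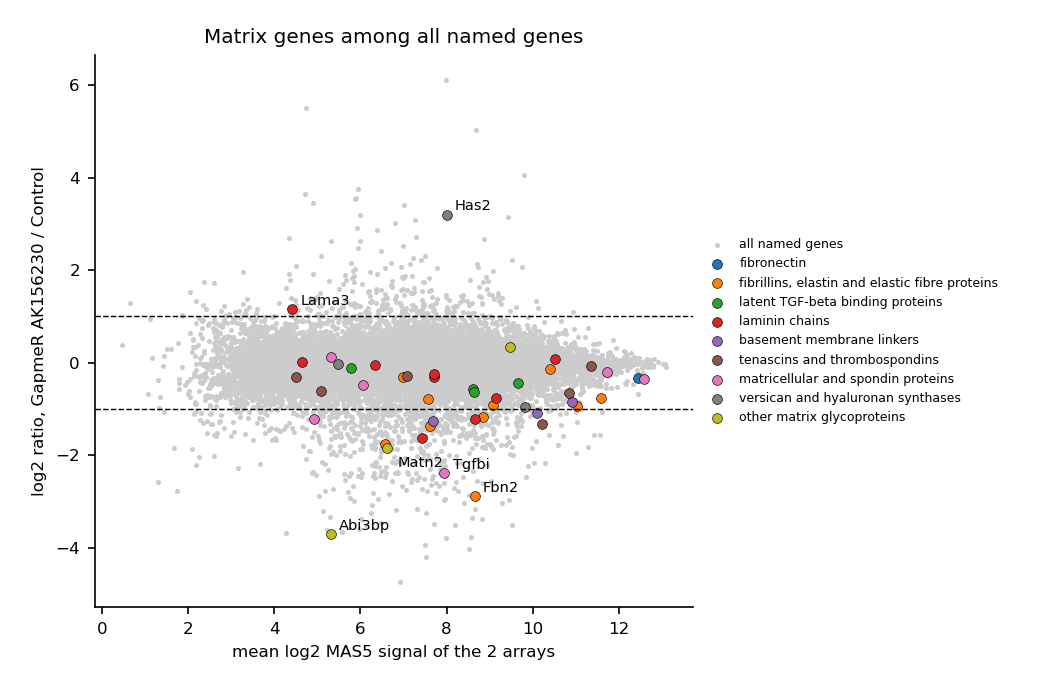
log2 ratio of knockdown over control against mean log2 MAS5 signal for all 18193 named genes (grey) and the 45 matrix genes (coloured by role), with dashed lines at 2-fold. Most coloured points lie below 0, and Has2 at 3.20 and Abi3bp at -3.71 are the extremes.

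Agreement among probe sets varied from gene to gene. The members had 94 probe sets, and 29 genes had more than 1. Of 28 further bright probe sets, 27 had the same sign as the one that represents the gene, the exception being the level second probe set of Thbs1. Of 12 further bright probe sets of members past 2-fold, 8 were past 2-fold in the same direction. The exceptions belonged to Emilin1, Hspg2, Lamc1 and Tgfbi. A probe set annotated to both Pald1 and Thbs1 was not used, and it read 5075.66 and 4571.41.

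**Figure D3:**
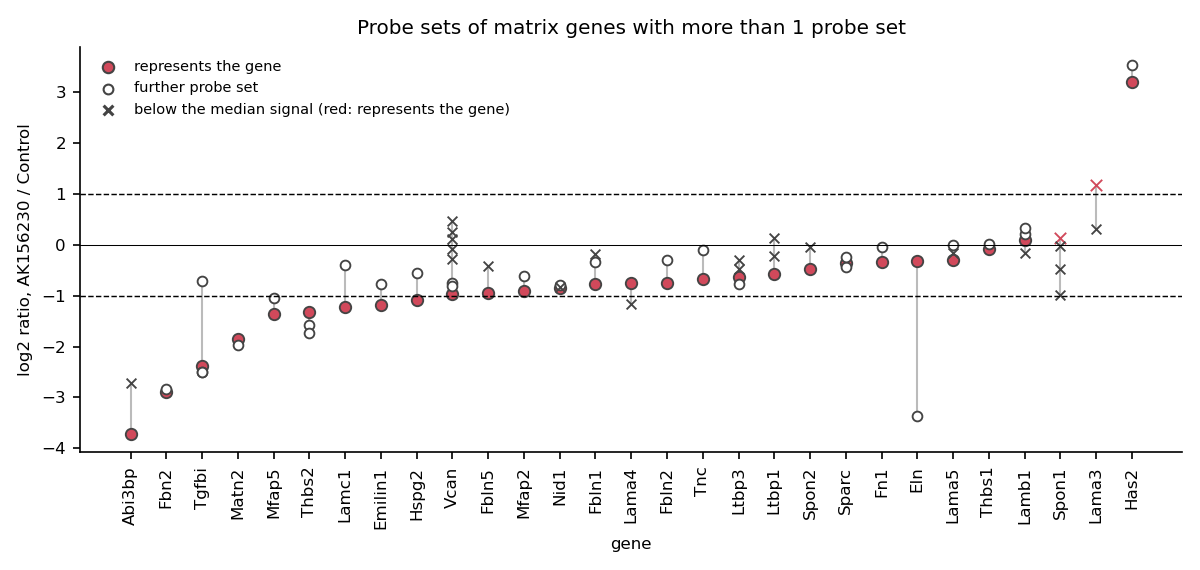
log2 ratio of knockdown over control for every probe set of the 29 matrix genes with more than 1 probe set, with the representative probe set in red, dim probe sets as crosses and 2-fold dashed. The probe sets of Fbn2, Matn2, Thbs2 and Has2 lie close together, while those of Eln span -3.37 to -0.31.

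The members lower by 2-fold or more included both short and long genes. Positions and lengths below are those of RefSeq genes on GRCm38. Fbn2 (chr18:58008623-58210572), Abi3bp (chr16:56477801-56690135) and Lama2 (chr10:26981285-27617191) span 202, 212.3 and 635.9 kb. Mfap4 (chr11:61485431-61488708) and Emilin1 (chr5:30913387-30921279) span 3.28 and 7.89 kb. Has2 (chr15:56665627-56694546) spans 28.9 kb. Long genes were lower more often over the whole array, so the members were counted within classes of genomic length among bright genes. Of 4 bright members over 160 kb, 3 were lower by 2-fold or more, against 25.4% of all bright genes of that length. Of 9 members of 80 to 160 kb, 3 were lower (Lamc1, Hspg2 and Matn2), against 8.3%. Of 15 members of 20 to 80 kb, 3 were lower (Nid2, Thbs2 and Tgfbi), against 3.77%. Of 10 members under 20 kb, 3 were lower (Mfap4, Mfap5 and Emilin1), against 2.28%. The exception over 160 kb was Ltbp1, which spans 387 kb and was 1.49-fold lower. Across the 38 bright members, length and log2 ratio had a Spearman rho of -0.28, and across 12303 bright genes with a known length -0.19. Genes measured on the same pair of arrays are not independent, and the part of gene length in these differences was not tested.

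**Figure D4:**
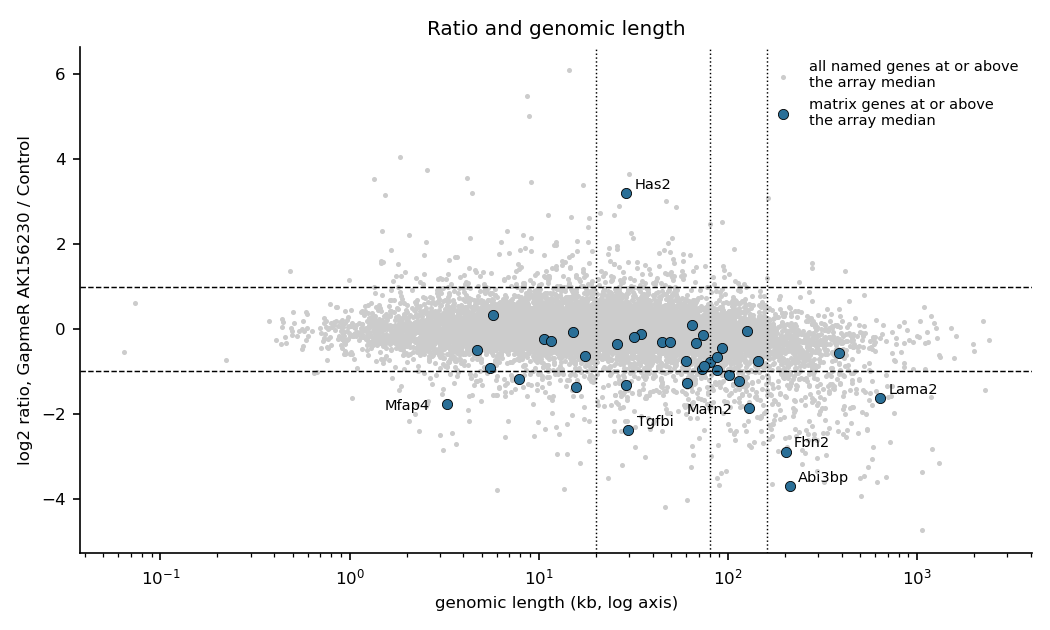
log2 ratio of knockdown over control against genomic length (log axis) for bright named genes (grey) and the 38 bright matrix genes (blue), with dotted lines at 20, 80 and 160 kb and dashed lines at 2-fold. Lower genes appear at every length, from Mfap4 at 3.28 kb to Lama2 at 635.9 kb.

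Other genes of the same matrix were often lower too. Over 6 lists of related genes, 79 genes outside the members were measured. Of these, 15 (19.0%) were lower and 1 was higher by 2-fold or more, against 3.85% and 1.59% of all named genes. The median log2 ratio was -0.43, against -0.074 over all named genes. Their median genomic length was 45.1 kb, against 20.2 kb over all named genes, and these counts were not split by length. Of 13 other laminin and basement membrane genes 4 were lower. Smoc2, a calcium-binding basement membrane protein gene, was 5.25-fold lower (257.05 and 48.95). Ntn1, which encodes the guidance cue netrin-1, was 4.10-fold lower (176.47 and 43.02), and Col18a1, a basement membrane collagen gene, 3.08-fold lower (747.34 and 242.64). The fourth was the dim Frem1. The genes of the collagen IV network, Col4a1 and Col4a2, were within 2-fold, with log2 ratios of -0.64 and -0.51.

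Of 13 lysyl oxidases and other elastic fibre genes, 2 were lower by 2-fold or more. They were Emilin2, 2.82-fold lower (427.55 and 151.5), and Loxl3, a lysyl oxidase, 2.21-fold lower (767.72 and 346.74). Lox, the founding enzyme of that family, had signals of 5305.29 and 4057.96, 1.31-fold lower. Of 15 other matricellular genes 6 were lower, with Smoc2 counted here again. Ccn5 was 4.93-fold lower (432.64 and 87.8), Fstl1, a secreted relative of Sparc, 3.55-fold lower (4687.26 and 1321.59) and Matn3 3.44-fold lower (90.92 and 26.42). Ccn1 and Ccn2, which encode the YAP-responsive proteins CYR61 and CTGF, had log2 ratios of 0.29 and 0.32. Of their relatives, Ccn3 was 2.39-fold lower (881.78 and 369.31) and Ccn4 1.73-fold lower (1783.22 and 1032.47). The Ccn genes thus did not all move in the same direction. Ccn3 and Matn3 were read from _x_at probe sets, a kind described above for Tgfbi. Any further probe sets of the related genes were not compared.

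Hyaluronan genes other than Has2 were mostly within 2-fold. Of 13, the only one past 2-fold was Cemip, which encodes a protein that drives hyaluronan breakdown, at 574.15 and 89.97, 6.38-fold lower. Cd44, the main hyaluronan receptor, was level at 3162.88 and 3283.55, and Ugdh, which makes a sugar precursor of hyaluronan, at 1136.24 and 1144.71. The synthase Has2 and the breakdown gene Cemip thus lay past 2-fold in opposite directions. Of 20 matrix receptors, Itgb3 (2.31-fold, 109.42 and 47.39) and the dim Itgb8 were lower, and the dim Itgb4, a receptor chain for the epithelial laminin, was higher (18.08 and 46.07). Dag1, which encodes the laminin receptor dystroglycan and was picked out after its values were seen, lay just inside 2-fold at 1553.92 and 777.29. Of 7 TGF-beta ligand and latency genes only Tgfbr3, which encodes the co-receptor betaglycan, passed 2-fold, at 3.39-fold lower (751.62 and 221.52). Median log2 ratios of the 6 lists ran from -0.73 for matricellular genes to -0.12 for hyaluronan genes.

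**Figure D5:**
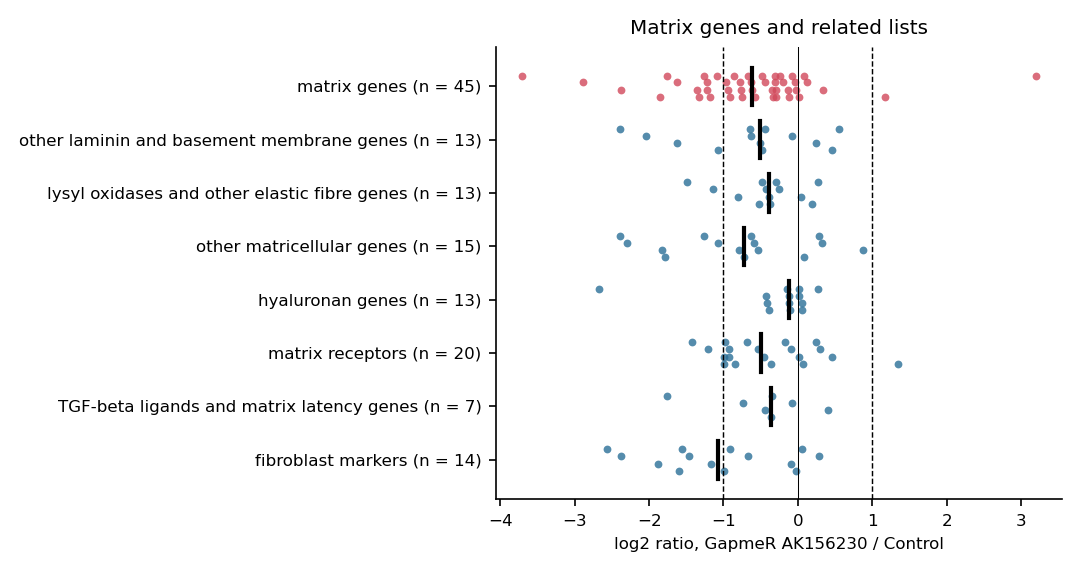
log2 ratio of knockdown over control for each gene of the matrix group, 6 lists of related genes and a list of fibroblast markers, where black bars are medians and the dashed lines mark 2-fold. The median lies at -0.62 for the matrix genes, -0.12 for hyaluronan genes and -1.08 for fibroblast markers.

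Of the fibroblast markers, some were lower by 2-fold or more and others lay within 2-fold. Over all named genes, 3.85% were lower and 1.59% higher by 2-fold or more, the shares beside which the marker counts stand. Of 14 fibroblast markers, 7 were lower and 0 higher by 2-fold, among them Prrx1, Pdgfra, Col3a1 and Ddr2. Vim, Dcn, S100a4 and Twist1 had log2 ratios of -0.09, 0.06, -0.02 and 0.29. The summed signal of the markers was 36170 in control and 23661 in knockdown cells, and none of them was dim. Such sums are weighted to the brightest probe sets, here for example Col1a2 (7019.42 and 4398.56), and do not measure cell numbers. In these bulk samples, fewer cells of a type and less RNA per cell cannot be told apart. Of 10 chondrocyte markers 3 were lower, with a summed signal of 1664 and 875, and 8 were bright. The lower ones were the cartilage collagen gene Col2a1, 4.52-fold lower (270.73 and 59.88), Matn3 and Col11a1, while Sox9 was bright and within 2-fold and Acan and Matn1 were dim. Of 10 skeletal muscle markers 3 were higher (731 and 1634 summed), of 9 epithelial markers 2 (555 and 966), of 10 leukocyte markers 2 (1545 and 1523) and of 10 endothelial markers 1 (637 and 590). Of 9 smooth muscle markers none passed 2-fold (16302 and 16092), and of 7 neural markers 2 were lower (498 and 473). The lower neural markers were Tubb3 (152.14 and 70.28) and the dim Sox2 (31.8 and 12.96), while the bright Nes was 1.70-fold higher (128.76 and 219.23). The higher epithelial markers were Dsp (39.3 and 319.21) and Krt18 (126.94 and 298.63), the higher leukocyte markers Cd68 (108.03 and 274.59) and Cd14 (95.25 and 225.4), and the higher endothelial marker Kdr (44.54 and 90.91), and all 5 were bright. The higher muscle markers were Chrna1 (39.66 and 418.27), Tnnt2 (59.74 and 250.21) and the dim Myf5. Dsp was read from an _s_at and Tnnt2 from an _x_at probe set, and any further probe sets of the markers were not compared. Other markers of these types were within 2-fold. Ptprc of leukocytes, Krt5 and Krt14 of keratinocytes and Pecam1 and Cdh5 of endothelium were dim on both arrays. Bright ones included Lyz2 (724.68 and 526.64) and Csf1r (174.17 and 141.55) of leukocytes. They also included Epcam (147.65 and 103.1) and Krt8 (77.11 and 81.09) of epithelium, and Egfl7 (322.28 and 218.03) and Esam (74.9 and 80.31) of endothelium. Those of skeletal muscle were Acta1 (416.88 and 770.32), which was higher, and Myod1 (59.81 and 35.33), which was lower. The part of a change in cell makeup in the lower matrix signals was not tested.

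Promoter sequence was read for members past 2-fold, most of which moved in the same direction. RefSeq windows on GRCm38.p6 matched 27 of the 45 members and 5 of the 15 past 2-fold, and the 250 bases before the start site were searched on both strands. A TATA box was searched as TATAAA. A GC box was searched as GGGCGG. The AP-1 site was TGANTCA, and the TEAD site was GGAATG. The CCAAT box was searched by the letters of its name. Shown 5′ to 3′ are the 3 windows that held any of them, because they carry the motif matches among the lower genes, with matches in capitals, and for Hspg2 the shown stretch stops where the gene's annotated span begins.
Hspg2, chr4:137468553-137468750, plus strand: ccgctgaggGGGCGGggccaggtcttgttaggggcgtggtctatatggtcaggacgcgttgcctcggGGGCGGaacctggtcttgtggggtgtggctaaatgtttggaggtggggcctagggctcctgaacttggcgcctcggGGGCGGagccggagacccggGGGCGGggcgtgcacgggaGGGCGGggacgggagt
Tgfbi, chr13:56609336-56609585, plus strand: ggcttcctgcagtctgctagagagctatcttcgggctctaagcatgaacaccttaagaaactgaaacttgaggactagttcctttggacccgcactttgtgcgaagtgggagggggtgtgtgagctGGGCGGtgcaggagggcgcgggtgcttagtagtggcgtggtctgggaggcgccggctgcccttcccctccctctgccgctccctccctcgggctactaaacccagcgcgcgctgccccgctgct
Thbs2, chr17:14694263-14694512, minus strand: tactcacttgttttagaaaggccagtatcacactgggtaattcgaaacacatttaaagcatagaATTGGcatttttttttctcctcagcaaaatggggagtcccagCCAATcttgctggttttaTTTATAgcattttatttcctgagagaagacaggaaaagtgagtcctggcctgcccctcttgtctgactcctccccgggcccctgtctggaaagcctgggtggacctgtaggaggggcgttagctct
The Hspg2 window held 5 GC boxes, and the Tgfbi window held 1. The Thbs2 window held 2 CCAAT boxes, in either orientation, and 1 match to the TATA box letters. That match reads on the strand opposite to the one shown, and its place relative to the start site was not tested. The windows of Emilin1 and Lama2 held none of the motifs. These windows lie wholly or almost wholly inside the annotated span of their gene, so they do not describe the bases upstream of that span. Of 27025 promoter windows of the same length, 32.9% held a GC box, 34.5% a CCAAT box, 13.0% a TATA box, 12.6% a TEAD site and 6.87% an AP-1 site. Over the members, 15 of 27 windows held a GC box, 9 a CCAAT box, 3 a TATA box, 3 an AP-1 site and 1 a TEAD site. No motif was present in more than 2 of the 5 windows of genes past 2-fold, and a match is a description of the letters only.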

How the data were processed

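Expression was measured on 2 arrays, 1 for each condition. Intensity values for 45037 probe sets were deposited as linear MAS5 signals; for the MAS5 version and its scaling, the sources used here give nothing. A porcine array is named in the methods, while the labels give mouse RNA and the probe set identifiers match the annotation of a mouse array, which was used. Genes were named from that annotation (34945 probe sets had 1 symbol, 932 had several and 9160 were not listed). For 34741 of the probe sets with 1 symbol, the symbol was looked up in RefSeq GRCm38.p6 through the Entrez ID.

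Knockdown signals were divided by control signals and log2 was taken with no offset. The SAM test of the methods needs several arrays per condition, so genes were counted at 2-fold and no p-value was computed. The number of arrays limits the precision, and detection calls were not used here. The members and lists were chosen with earlier results of these data known. Members past 2-fold, the 10 with the highest mean signal, probe sets differing by over 1 (log2) from the representative and up to 4 bright genes past 2-fold per related list are named; the remaining named genes were picked with their values in view.

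Alternatives were scaling to the same median, quantile normalization, loess, an offset of 24.3, other choices of probe set, minimum signals at the 25th and 75th percentiles, and thresholds of 1.5-fold and 3-fold. The counting was tested on simulated data. Python 3.11.15, numpy 2.4.6, pandas 2.3.3, statsmodels 0.14.6 and matplotlib 3.10.9 were used.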

Additional observations from a re-analysis of the deposited data

Results flagged for a closer look

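A second probe set of Has2, which does not enter the gene values, had a signal of 801.82 with GapmeR AK156230, above its GapmeR Control signal of 69.78, and is listed because it lies outside the main measurement and is 2-fold or more above the control.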

How the results depend on the processing

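The median log2 ratio of the members stayed below 0 under every alternative tried, from -0.77 to -0.43. At 1.5-fold 23 members were lower, and at 3-fold 6 were; among bright members these counts were 21 and 6, and over 80 kb 10 were lower at 1.5-fold, against 6 at 2-fold. The number higher was 1 in place of 2 with the offset, with the mean of all probe sets, with a minimum at the 75th percentile and at 3-fold, since Lama3 then dropped out. The count of lower members was otherwise between 11 and 14. Lower calls made up 70.8% of all calls over named genes, and 60.0% with both arrays scaled to the same median; for the members these shares were 86.7% and 85.7%. With that scaling and with quantile normalization the log2 ratios of Lama1, Thbs1 and Has1 were above 0. With the mean of all probe sets Emilin1, Lamc1 and Hspg2 were within 2-fold (-0.98, -0.81 and -0.82) and Eln was at -1.84; Eln was at -2.75 with the offset, which also made its other probe set the representative. The offset also moved Mfap4 from -1.76 to -1.39 and Matn2 from -1.85 to -1.47, both still past 2-fold. Without _x_at and _s_at probe sets Hspg2 was at -0.55. No array could be left out because each condition had 1. No paired analysis was possible because each condition had 1 array.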
